A study of Mus musculus with 16 samples.

Results

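Members of the bone morphogenetic protein (BMP) pathway were followed in cultured mouse airway epithelium: the ligands Bmp2, Bmp4 and Bmp7, the target genes Id1, Id2, Id3, Smad6 and Smad7, and the secreted antagonists Grem1 and Fst. They were 10 of the 49315 genes in the count table and were found by symbol. All 10 passed the filter on low counts, which left 15993 genes for testing. The set was chosen on the high Bmp2 counts of HDM-treated female WT cultures. Values of the members in any contrast that holds those libraries are therefore given as a description, without a test.

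RNA was sequenced from MTECs, primary murine tracheal epithelial cell cultures, of male (M) and female (F) mice on the C57BL/6J background that were LMAN1 knockout (KO) or wild-type (WT) littermates. LMAN1 is a cargo receptor of the early secretory pathway and binds house dust mite (HDM) allergen. Cultures were left naïve or received HDM extract at 20 µg/ml overnight, in 8 groups of 2 libraries, 16 in all. Tracheas were pooled before plating, and cells were grown on inserts coated with matrix laid down by 3T3 fibroblasts, submerged at first and then at an air-liquid interface. The 8 groups were M WT naïve, M WT HDM, M KO naïve, M KO HDM, F WT naïve, F WT HDM, F KO naïve and F KO HDM, and HDM was the only agent that differed between them. No age of the mice that gave the cultures was stated in the sources used here.

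BMP ligands are dimers of the TGF-β superfamily that are cut by furin-type proteases, secreted and bound by pairs of type I and type II receptor kinases. The receptors phosphorylate SMAD1, SMAD5 and SMAD9, which enter the nucleus with SMAD4 and switch on the ID genes and the inhibitory SMADs, Smad6 and Smad7, which in turn dampen the receptors. Antagonists such as noggin and gremlin 1 hold the ligands outside the cell, and in airway epithelium the pathway is known for its part in basal cell growth and differentiation.

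Libraries held 21860698 to 43442188 counts, and levels are given as TMM-scaled CPM, the counts of a gene relative to the library's scaled total. Lman1 lay at 101.3 to 144.1 CPM in the 8 libraries labelled WT. It lay at 12.8 to 78.1 CPM in the 8 labelled KO, with 3 under 20 CPM and 5 above 60 CPM. All 4 libraries labelled KO and HDM were among the latter, at 64.98 to 78.08 CPM, so leaving out the libraries whose Lman1 was high would leave no KO HDM culture. Both F KO naïve libraries and M KO naïve replicate 1 held 12.8 to 14.2 CPM and M KO naïve replicate 2 held 63.4 CPM, so the F KO groups compared below differed in Lman1 as well as in HDM. Directions drawn from the KO groups rest on libraries so labelled. The culture type was checked with marker genes. The 5 basal cell markers summed to 6586 to 13050 CPM in 14 libraries and to 4296 and 2203 CPM in F WT HDM replicates 1 and 2. Krt5, Krt15 and Trp63 were lower in that pair than in all 14 others. Krt14, at 2017 and 1199 CPM, and Itga6, at 332.4 and 243.7 CPM, lay within the range of the 14. The 5 secretory markers summed to 86.25 to 1356 CPM in the 14 and to 10.9 and 11.3 CPM in the same pair, and Scgb1a1, the defining club cell gene, did not exceed 3.75 CPM in any library. The 5 ciliated markers summed to 62.5 to 159.4 CPM in the 14 libraries and to 90.4 and 99.4 CPM in F WT HDM, of which Foxj1 made up 79.1 and 86.6 CPM. Rsph1, at 3.04 and 3.46 CPM, and Cfap126, at 2.41 and 2.32 CPM, were lower in F WT HDM than in all 14 others. Less RNA per cell and fewer cells of a type cannot be told apart in such bulk libraries. Since the labels do not say whether replicates came from separate pools of tracheas, p-values measure only the spread between these cultures.

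In naïve cultures the members differed widely in level. On a per-length scale, CPM per kilobase of exon, Id1 was highest with 22.7 ± 4.26 (SD, n = 8 naïve cultures) and Id2 followed with 17.5 ± 3.24. Bmp4 stood at 8.20 ± 2.42, Smad6 at 6.16 ± 0.826, Bmp7 at 5.63 ± 1.01 and Smad7 at 4.90 ± 0.473. Lower still were Fst at 3.35 ± 1.18, Grem1 at 2.72 ± 2.51, Id3 at 1.71 ± 0.655 and Bmp2 at 0.152 ± 0.0695. Ranges of neighbors in this order overlapped with 2 exceptions, Id2 above Bmp4 and Id3 above Bmp2. By these means Bmp4 was the highest of the 3 member ligands and Bmp2 the lowest member, with 7 to 33 counts in each naïve female library. Bmp6, a ligand outside the set, stood at 7.86 per kilobase in F KO naïve cultures, where Bmp4 stood at 6.32. No member was called between naïve KO and WT cultures, in females or males, by edgeR's quasi-likelihood test at an adjusted p under 0.05 (Benjamini-Hochberg over all genes tested), and 0% of all genes were called in either comparison. At an unadjusted p under 0.05, 0 members passed there, while 203 and 867 of all genes did in females and males, and DESeq2 called 1 gene in each.

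Promoter windows of 300 bases, 250 before and 50 after a RefSeq start (build GRCm38.p6), were found for 5 of the 10 members, Bmp4, Id2, Id3, Smad6 and Grem1. Entries for Bmp2, Bmp7, Id1 and Fst were missing, and Smad7 was not examined. A pair of palindromic SMAD motifs was searched, GTCTAGAC and the GC-rich GGCGCC, which read the same on both strands and do not overlap each other. Windows with a match are shown because they belong to an inhibitory SMAD, an ID gene and a BMP antagonist, members of 3 different roles with different patterns below. Capitals mark the motif, and sequences run 5′ to 3′ on the gene's strand.
Smad6 (chr9:64022010-64022309, - strand): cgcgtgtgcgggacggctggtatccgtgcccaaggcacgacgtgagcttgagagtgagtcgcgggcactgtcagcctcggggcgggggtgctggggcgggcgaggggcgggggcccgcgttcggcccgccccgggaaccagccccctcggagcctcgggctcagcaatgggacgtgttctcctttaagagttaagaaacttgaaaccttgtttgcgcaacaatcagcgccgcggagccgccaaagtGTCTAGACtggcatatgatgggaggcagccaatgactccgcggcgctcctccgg
Id2 (chr12:25096043-25096342, - strand): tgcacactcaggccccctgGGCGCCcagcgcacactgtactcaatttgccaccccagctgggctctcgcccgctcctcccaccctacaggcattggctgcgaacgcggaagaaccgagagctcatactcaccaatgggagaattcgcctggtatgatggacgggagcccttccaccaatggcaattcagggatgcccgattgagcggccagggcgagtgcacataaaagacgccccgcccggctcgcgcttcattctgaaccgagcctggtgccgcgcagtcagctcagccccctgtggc
Grem1 (chr2:113758599-113758898, - strand): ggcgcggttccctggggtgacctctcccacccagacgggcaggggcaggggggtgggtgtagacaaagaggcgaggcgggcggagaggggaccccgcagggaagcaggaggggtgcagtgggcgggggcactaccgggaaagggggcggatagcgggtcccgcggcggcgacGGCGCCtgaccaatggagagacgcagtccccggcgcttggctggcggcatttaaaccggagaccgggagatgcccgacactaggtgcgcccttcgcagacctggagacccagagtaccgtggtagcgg
The Smad6 motif began 4 bases before the start, the Id2 motif 231 bases before it and the Grem1 motif 78 bases before it. Of 32851 windows in the RefSeq table, 0.213% held GTCTAGAC and 11.9% held GGCGCC. The windows of Bmp4 and Id3 held neither string of letters.

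Among the ligands, Bmp2, a secreted BMP of the same subgroup as Bmp4, stood out in HDM-treated WT females (ENSMUSG00000027358, chr2:133552159-133562885, + strand, GRCm38). It lay at 0.254 and 0.607 CPM in F WT naïve replicates 1 and 2, at 9.36 and 59.1 CPM in F WT HDM, at 0.684 and 1.02 CPM in F KO naïve, and at 1.69 and 1.72 CPM in F KO HDM. In males it lay at 0.431 and 0.269 CPM in WT naïve, 0.914 and 0.587 CPM in WT HDM, 0.552 and 0.492 CPM in KO naïve, and 0.392 and 0.172 CPM in KO HDM. Both F WT HDM libraries were thus above the highest of the other 14, which reached 1.72 CPM, but they also differed from each other more than any other pair did. The fitted difference between F WT HDM and F WT naïve was 6.22 ± 0.79 on the log2 scale (SE, 74.7-fold). It was 4.37 without F WT HDM replicate 2, 7.04 without F WT naïve replicate 2, and 5.18 without either library numbered 2. Against F KO HDM the F WT HDM mean was 20.0-fold higher, and against M WT HDM 45.3-fold higher. On the log2 scale, F KO HDM minus F WT HDM was -4.32, and it was -2.45 without F WT HDM replicate 2 and -5.10 without replicate 1. M WT HDM minus F WT HDM was -5.50, and it was -3.63 and -6.29 without the same libraries.

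Bmp7, a ligand of another subgroup (ENSMUSG00000008999, chr2:172868012-172940321, - strand), was higher in HDM-treated than in naïve female cultures of both labels. It lay at 18.7 and 25.2 CPM in F WT naïve, 46.6 and 29.3 CPM in F WT HDM, 19.3 and 24.4 CPM in F KO naïve, and 42.9 and 43.1 CPM in F KO HDM. In males, WT naïve cultures held 18.3 and 29.1 CPM, WT HDM 20.6 and 34.2 CPM, KO naïve 25.9 and 20.0 CPM, and KO HDM 16.9 and 14.5 CPM. The groups did not overlap in females, and M KO HDM was the lowest group. In F KO cultures the difference was 0.98 ± 0.29 on the log2 scale with an adjusted p of 0.0565 (edgeR), just outside the threshold. It passed with DESeq2 (adjusted p = 0.00912), with a replicate block (0.0189) and in a fit of the 4 compared libraries alone (0.00109), while leaving out any of the 4 libraries gave 0.119 to 0.307.

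Bmp4, the closest relative of Bmp2 (ENSMUSG00000021835, chr14:46383520-46390669, - strand), ranged from 10.7 to 28.7 CPM over the 16 libraries and was not called by edgeR in any comparison tested. Male cultures held 15.1 to 28.7 CPM and females 10.7 to 19.2 CPM. F KO HDM, at 11.5 and 10.7 CPM, lay below M KO HDM at 19.0 and 17.6 CPM, a difference of 0.71 ± 0.27 on the log2 scale (adjusted p = 0.0765, edgeR). The adjusted p was 0.0398 with DESeq2 and 0.00115 in a fit of the 4 compared libraries alone, and 0.177 to 0.243 with any of them left out. A pair of annotated genes on the opposite strand overlaps Bmp4, and these held 32 and 95 counts over all libraries together. Whether reads were counted by strand was not given in the sources used here.

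**Figure D1:**
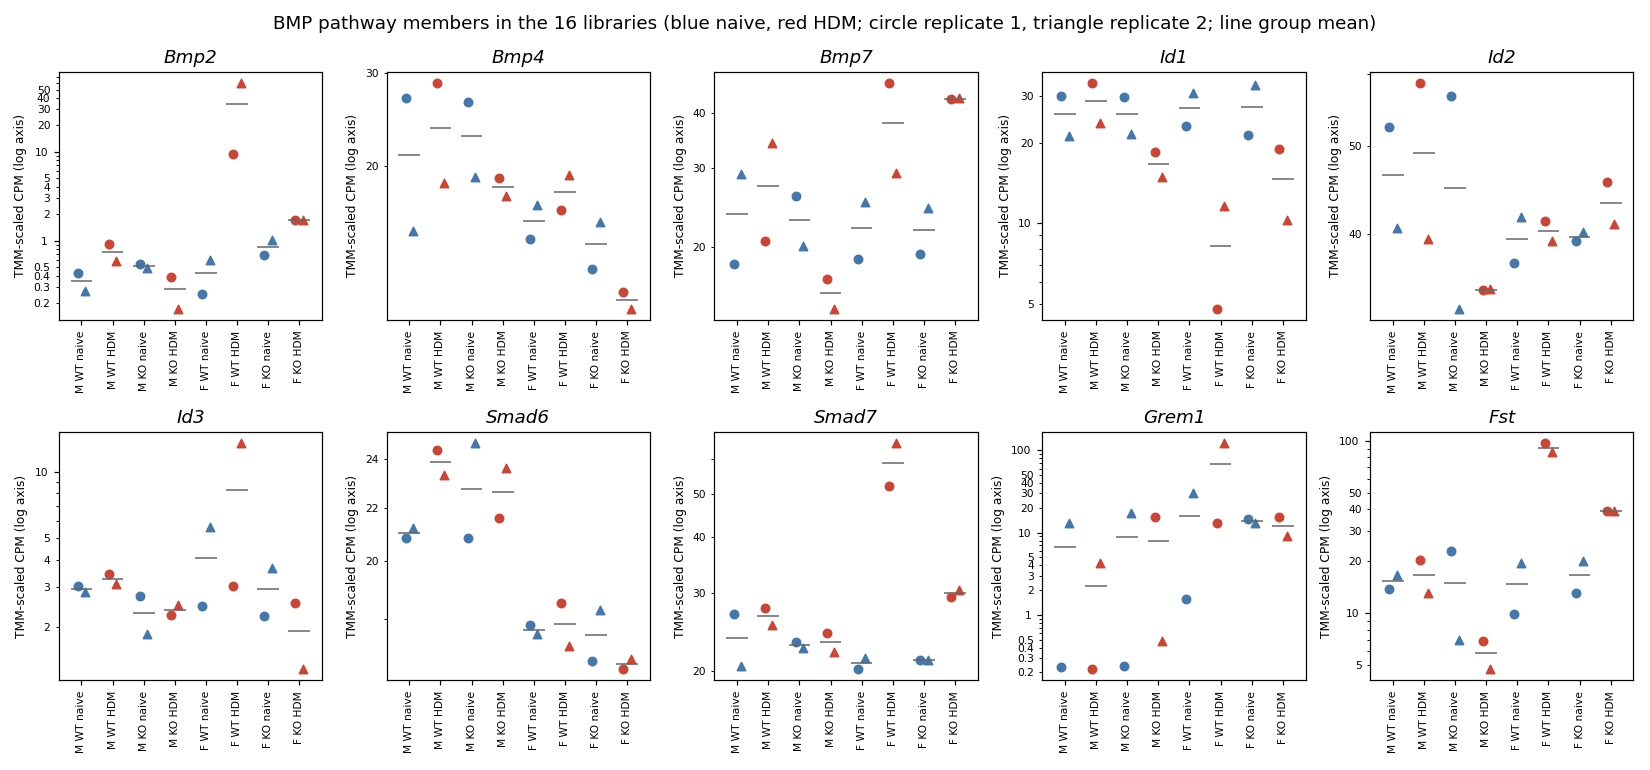
TMM-scaled CPM (log axis) of each member in the 16 libraries, by group, with circles for replicate 1, triangles for replicate 2, blue for naïve, red for HDM and a line at the group mean. Bmp2, Smad7 and Fst were highest in the F WT HDM pair, Smad6 separated male from female libraries, and Grem1 differed mainly between replicates.

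ID proteins are helix-loop-helix factors without a DNA-binding region that hold E proteins in inactive dimers. The 3 ID members did not move together with HDM in females. Id1 (ENSMUSG00000042745, chr2:152736251-152737410, + strand) lay at 23.1 and 30.8 CPM in F WT naïve and 4.79 and 11.7 CPM in F WT HDM. It lay at 21.4 and 33.0 CPM in F KO naïve and 19.0 and 10.3 CPM in F KO HDM. In males it lay at 30.1 and 21.3 CPM in WT naïve, 33.5 and 23.7 CPM in WT HDM, 29.7 and 21.7 CPM in KO naïve, and 18.5 and 14.9 CPM in KO HDM. HDM-treated libraries were below naïve ones in F WT, F KO and M KO cultures, without overlap, and overlapped them in M WT. Such a separation of 2 libraries from 2 was not set against its share over all genes. The difference was -1.73 ± 0.41 on the log2 scale in F WT, and it was -1.22 without F WT HDM replicate 1 and -2.50 without replicate 2. It was -0.89 ± 0.40 in F KO (adjusted p = 0.179) and -0.62 ± 0.39 in M KO (adjusted p = 0.781), neither called by edgeR.

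Id2 (ENSMUSG00000020644, chr12:25093799-25097140, - strand) varied least of the ID members, from 33.1 to 58.6 CPM. Its F WT HDM libraries, at 41.3 and 39.3 CPM, lay between those of F WT naïve, at 37.2 and 41.7 CPM. The difference was 0.03 ± 0.23 on the log2 scale, and in F KO it was 0.12 ± 0.23 with a 95% interval of -0.37 to 0.62. Id3 (ENSMUSG00000007872, chr4:136143497-136145755, + strand) lay at 1.29 to 5.64 CPM in 14 libraries, at 3.04 CPM in F WT HDM replicate 1 and at 13.4 CPM in F WT HDM replicate 2. Only that last library stood apart. The F WT difference of 1.00 ± 0.58 on the log2 scale turned to -0.43 when it was left out. Between same-numbered F WT libraries, HDM against naïve, Id3 lay at 3.04 against 2.47 CPM and at 13.4 against 5.64 CPM. The labels do not state that such libraries share a pool.

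Of the inhibitory SMADs, Smad7, which recruits ubiquitin ligases to the receptors (ENSMUSG00000025880), followed HDM in females, and Smad6 followed sex. Smad7 lay at 20.2 and 21.4 CPM in F WT naïve and 52.2 and 65.0 CPM in F WT HDM, a difference of 1.49 ± 0.13 on the log2 scale (2.82-fold). It lay at 21.2 and 21.1 CPM in F KO naïve and 29.3 and 30.4 CPM in F KO HDM. In males, WT naïve held 26.8 and 20.5 CPM, WT HDM 27.6 and 25.4 CPM, KO naïve 23.2 and 22.6 CPM, and KO HDM 24.3 and 22.1 CPM. All HDM-treated female libraries exceeded all naïve female libraries, and male groups overlapped. Smad7 rose in F KO cultures by 0.50 ± 0.13 on the log2 scale (1.41-fold, adjusted p = 0.0315, edgeR), and it was the only member called there. This call was lost when any of the 4 libraries was left out, F KO naïve replicate 1 (adjusted p = 0.164) or 2 (0.127) and F KO HDM replicate 1 (0.0948) or 2 (0.176), at nearly the same difference of 0.47 to 0.52. The difference between the sexes' responses in cultures labelled KO was 0.48 ± 0.18 (adjusted p = 0.185).

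Smad6, which blocks type I receptors and SMAD1 (ENSMUSG00000036867, chr9:63953076-64022059, - strand), was the steadiest member. In males it lay at 20.9 and 21.2 CPM in WT naïve, 24.4 and 23.3 CPM in WT HDM, 20.8 and 24.7 CPM in KO naïve, and 21.6 and 23.6 CPM in KO HDM. In females it lay at 17.8 and 17.5 CPM in WT naïve, 18.5 and 17.1 CPM in WT HDM, 16.7 and 18.3 CPM in KO naïve, and 16.5 and 16.8 CPM in KO HDM. All 8 male libraries, from 20.8 to 24.7 CPM, were above all 8 female libraries, from 16.5 to 18.5 CPM, a separation in this direction that 1.2% of all tested genes showed. The male minus female difference was 0.25 ± 0.10 on the log2 scale in WT naïve cultures (adjusted p = 0.351, edgeR), 0.38 ± 0.10 in KO naïve (adjusted p = 0.187) and 0.44 ± 0.10 in KO HDM (adjusted p = 0.00736). It was 0.42 ± 0.10 in WT HDM, given without a test. HDM moved it little, with a difference of 0.01 ± 0.10 in F WT.

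The secreted antagonists behaved differently from each other. Follistatin, encoded by Fst, binds activins tightly and some BMPs more loosely (ENSMUSG00000021765, chr13:114452290-114458951, - strand). Fst lay at 9.85 and 19.6 CPM in F WT naïve, 96.6 and 86.1 CPM in F WT HDM, 13.1 and 20.1 CPM in F KO naïve, and 39.0 and 38.9 CPM in F KO HDM. In males, WT naïve held 13.8 and 16.7 CPM, WT HDM 20.3 and 13.1 CPM, KO naïve 22.8 and 6.94 CPM, and KO HDM 6.92 and 4.75 CPM. HDM-treated females were above every other library, F WT above F KO, and M KO HDM was lowest. The difference was 2.62 ± 0.47 on the log2 scale in F WT (6.15-fold) and 1.24 ± 0.46 in F KO (2.35-fold, adjusted p = 0.114, edgeR). In a fit of the 4 F KO libraries alone the adjusted p was 0.00218 and with a replicate block 0.0426, while it was 0.112 with DESeq2 and 0.174 to 0.45 with any of the 4 left out. Without F WT naïve replicate 2 the F WT difference was 3.21.

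Gremlin 1, encoded by Grem1, binds BMP2, BMP4 and BMP7 (ENSMUSG00000074934, chr2:113746164-113758646, - strand). Grem1 lay at 1.56 and 30.5 CPM in F WT naïve, 13.2 and 121.4 CPM in F WT HDM, 14.4 and 13.0 CPM in F KO naïve, and 15.3 and 8.99 CPM in F KO HDM. In males, WT naïve held 0.232 and 13.1 CPM, WT HDM 0.221 and 4.23 CPM, KO naïve 0.241 and 17.3 CPM, and KO HDM 15.4 and 0.482 CPM. Replicates 1 and 2 differed widely in both F WT groups and in all male groups, and were close in the F KO groups. Accordingly, the F WT difference of 2.04 ± 1.76 on the log2 scale became -0.30 without F WT HDM replicate 2 and 5.42 without F WT naïve replicate 2. Between same-numbered F WT libraries Grem1 was higher with HDM, at 13.2 against 1.56 CPM and 121.4 against 30.5 CPM. The labels do not state that such libraries share a pool of tracheas.

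Grem1 moved with fibroblast markers. The summed level of 7 markers (Col1a1, Col1a2, Col3a1, Pdgfra, Dcn, Lum and Postn) was 4.28 and 167.4 CPM in M WT naïve, 2.65 and 43.6 CPM in M WT HDM, 5.07 and 98.2 CPM in M KO naïve, and 73.0 and 13.7 CPM in M KO HDM. In females it was 28.6 and 568.7 CPM in WT naïve, 48.4 and 602.9 CPM in WT HDM, 110.6 and 94.6 CPM in KO naïve, and 73.3 and 68.0 CPM in KO HDM. Of the 7 markers, Lum alone was at 0 in any library, M KO naïve replicate 1. Across the 16 libraries, log2 Grem1 and the log2 sum had a Pearson r of 0.95 (Spearman rho 0.894), and r was 0.951 over the 14 libraries other than F WT HDM. These points share library, depth and culture, and the value is a description. For the other members r lay between -0.6 for Id2 and 0.402 for Bmp2. F WT HDM replicate 2, the library highest in Bmp2, Id3 and Grem1, held the highest sum, while F WT naïve replicate 2 held nearly as much with Bmp2 at 0.607 CPM. Dcn reached 45.9 CPM and Lum 28.0 CPM in the former, against 2.56 and 0.877 CPM in the latter. Col3a1 (290.5 against 119.5 CPM) and Pdgfra (11.8 against 2.20 CPM) were also higher there. Col1a1 went the other way, at 47.1 against 249.3 CPM, as did Postn, at 25.9 against 43.5 CPM. Col1a2 was similar, at 153.6 against 150.7 CPM. Acta2, an actin of smooth muscle and myofibroblasts, was at 272.3 and 440.5 CPM in F WT HDM, while Myh11, the defining smooth muscle gene, stayed at 0.250 and 0.0947 CPM. The part of these cells in the members' values was not tested.

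**Figure D2:**
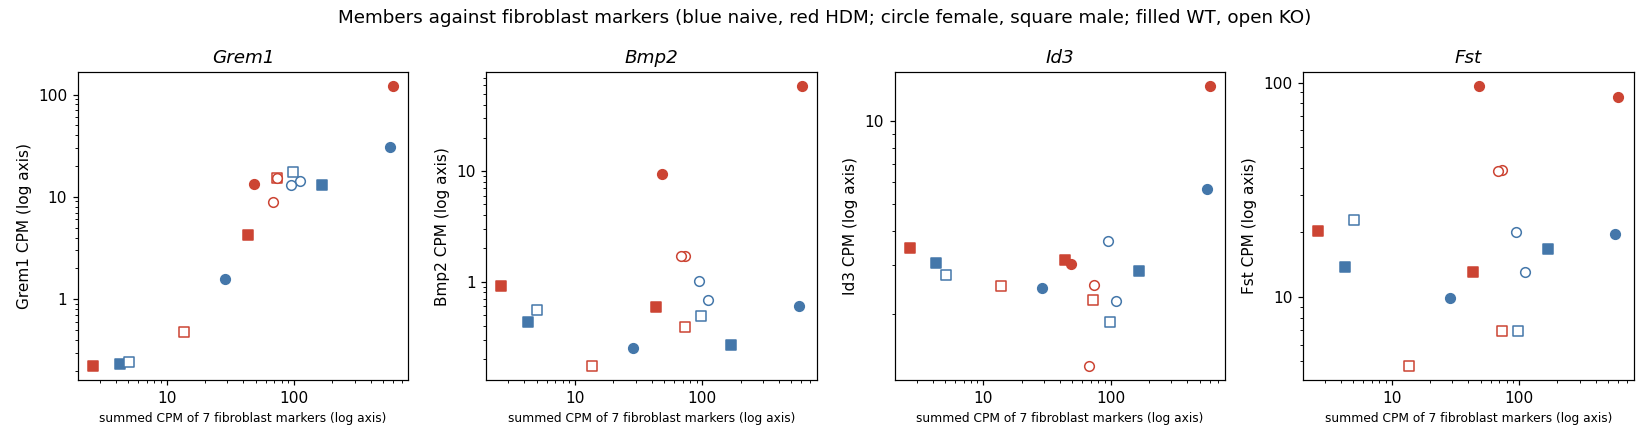
CPM of Grem1, Bmp2, Id3 and Fst (log axes) against the summed CPM of 7 fibroblast markers, 1 point per library, with blue for naïve, red for HDM, circles for females, squares for males, filled for WT and open for KO. Grem1 followed the marker sum over the 16 libraries, and both F WT HDM libraries held similar Fst, 96.6 and 86.1 CPM, at marker sums of 48.4 and 602.9 CPM.

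By the common call rule, the HDM response of F WT cultures included 43.1% of all tested genes, 20.6% higher and 22.4% lower with HDM. The members were chosen on libraries of this contrast, so no count of them is given. In F KO cultures 10.4% of all genes were called, 4.63% higher and 5.77% lower, and 1 of 10 members was called, higher. The members' median there was 0.02 on the log2 scale, with 5 of 10 higher.

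In male cultures HDM changed no member by this rule, and 0% of all tested genes were called in M WT as in M KO. At an unadjusted p under 0.05, 0 and 1 of the 10 members passed in M WT and M KO, against 665 and 857 of all genes, and DESeq2 called 2 and 1 genes. The member that passed was Fst in M KO, with a difference of -1.34 ± 0.49 on the log2 scale (adjusted p = 0.781, edgeR). Intervals were wide for the low genes. For Bmp2 the 95% interval was -0.82 to 2.99 in M WT and -2.95 to 1.20 in M KO. For Smad7 it was narrow, -0.12 to 0.44 in M WT and -0.26 to 0.30 in M KO.

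**Figure D3:**
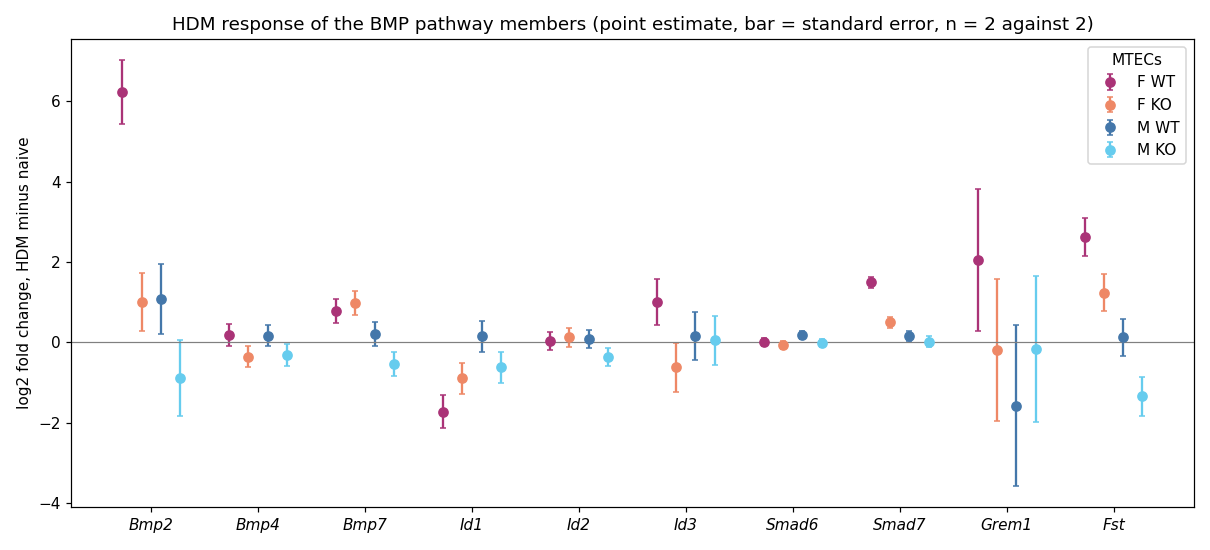
Log2 fold change of each member, HDM minus naïve, in the F WT, F KO, M WT and M KO cultures, with bars for the standard error (n = 2 against 2). Bmp2 in F WT reached 6.22, Fst 2.62 and Smad7 1.49, while the male estimates lay between -1.57 and 1.09.

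The sexes were then compared at matched genotype and treatment. No member was called in naïve WT or naïve KO cultures, where 0.1% and 0.188% of all genes were called. At an unadjusted p under 0.05 there were 1 and 2 members, beside 1969 and 1585 of the 15993 genes tested. These members were Smad6 in both and Bmp4 in KO. DESeq2 called 0 members in either, beside 204 and 216 of all genes. In HDM-treated cultures labelled KO, 25.3% of all genes passed, with males above females for 12.9% of all genes and below them for 12.4%. This contrast does not hold the F WT HDM libraries. The members were still listed with earlier results of these data known, so its p-values do not come from an untouched set. Here 4 of 10 members passed, Smad6 with more in males and Fst, Bmp7 and Bmp2 with less. The male minus female difference of Fst was -2.74 ± 0.50 on the log2 scale (5.83 against 38.95 CPM, 6.68-fold lower in males, adjusted p = 0.00238, edgeR), and this call held with any of the 4 libraries left out (adjusted p up to 0.0372). That of Bmp7 was -1.45 ± 0.30 (15.7 against 42.98 CPM, adjusted p = 0.00488), and that of Smad6 was 0.44 ± 0.10 (22.6 against 16.6 CPM, adjusted p = 0.00736). Without M KO HDM replicate 2 these 2 calls were lost (adjusted p = 0.0555 and 0.0827). That of Bmp2 was -2.59 ± 0.86 (0.282 against 1.71 CPM, adjusted p = 0.046). Its call was lost without M KO HDM replicate 1 (adjusted p = 0.106) or 2 (0.244) and without F KO HDM replicate 1 (0.12) or 2 (0.121). Secretory markers summed to 1105 and 1356 CPM in M KO HDM and to 109.3 and 86.3 CPM in F KO HDM, and basal markers to 6586 and 6701 CPM against 13050 and 10460 CPM. Acta2 lay at 27.3 and 26.2 CPM in M KO HDM and at 129.4 and 89.97 CPM in F KO HDM. Other smooth muscle markers were not higher in females, with Myh11 at 0.785 and 0.551 CPM in M KO HDM against 0 and 0.215 CPM, and Cnn1 at 2.96 and 0.929 CPM against 0.525 and 0.680 CPM. The part of cell makeup in these differences was not tested.

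**Figure D4:**
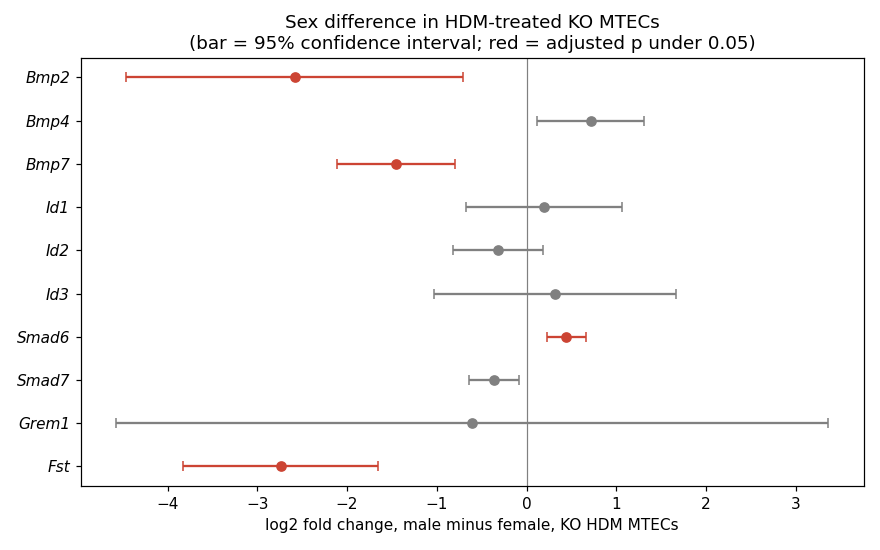
Log2 fold change of each member, male minus female, in HDM-treated cultures labelled KO, with bars for the 95% confidence interval (n = 2 against 2) and red for an adjusted p under 0.05. Fst, Bmp7 and Bmp2 lay below 0 and Smad6 above it, and the interval of Grem1 spanned -4.57 to 3.36.

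A direct test of whether HDM acted differently by sex in cultures labelled KO called 0 of 10 members and 3.56% of all genes. Fst came closest, with a female minus male response of 2.58 ± 0.67 on the log2 scale (adjusted p = 0.0581, edgeR), followed by Bmp7 with 1.53 ± 0.42 (adjusted p = 0.0697). At an unadjusted p under 0.05, 3 members passed, as did 2972 of all tested genes. DESeq2 called 2 members, Fst (adjusted p = 0.0143) and Bmp7 (0.0061), and 1192 of all tested genes. With M KO naïve replicate 2 left out, whose Fst was 6.94 CPM against 22.8 CPM in replicate 1, the adjusted p of Fst became 0.0049. Without M KO naïve replicate 1 it was 0.226. Replicate 2 held Lman1 at 63.4 CPM and secretory markers at 1305 CPM, against 14.2 and 523.7 CPM in replicate 1, and M KO HDM held 64.98 and 66.03 CPM of Lman1 and 1105 and 1356 CPM of secretory markers. The part of these differences in the result was not tested.

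Remaining contrasts hold the F WT HDM libraries and are described only. Over all tested genes, 41.6% differed between male and female WT HDM cultures, 29.2% between F KO and F WT HDM cultures and 11.2% between the HDM responses of F WT and F KO. In HDM-treated females, Bmp2, Smad7 and Fst were lower in the cultures labelled KO, with KO minus WT differences of -4.32 ± 0.71, -0.97 ± 0.13 and -1.23 ± 0.45 on the log2 scale, and Bmp7 differed by 0.18 ± 0.29. In HDM-treated males, 0 members and 0% of all genes were called between the genotype labels by edgeR. There 3 members passed an unadjusted p under 0.05, as did 2897 of all genes, and DESeq2 called 562 genes. Of these 3, the difference was largest for Fst, at -1.52 ± 0.49 (5.83 against 16.7 CPM, adjusted p = 0.185).

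The wider pathway was read from a list of 64 other BMP genes, of which 49 passed the filter on low counts. In F WT cultures 28 of the 49 (57.1%) changed with HDM, 18 higher and 10 lower, beside 43.1% of all tested genes, and 17 of these calls held in every fit with 1 of the 4 libraries left out. Gdf6, which passed the filter on low counts only through F WT HDM, is among the 28 and among the calls that held. In F KO cultures 12 of 49 (24.5%) changed, 8 higher and 4 lower, beside 10.4% of all genes. These shares were not tested against each other, and none of the counts by role below is read as particular to the pathway. In F KO cultures secretory markers summed to 531.9 and 351.0 CPM when naïve and to 109.3 and 86.3 CPM with HDM, ciliated markers to 121.9 and 141.5 CPM and to 62.5 and 68.5 CPM, and Acta2 lay at 23.5 and 41.6 CPM and at 129.4 and 89.97 CPM. Myh11 and Cnn1, other smooth muscle markers, were not higher with HDM. Myh11 lay at 0.143 and 0.310 CPM when naïve and at 0 and 0.215 CPM with HDM, and Cnn1 at 0.741 and 1.05 CPM and at 0.525 and 0.680 CPM. The part of cell makeup in the F KO differences, members included, was not tested. The number of those 12 calls that held was 1 without F KO naïve replicate 1, 5 without F KO naïve replicate 2, 5 without F KO HDM replicate 1 and 2 without F KO HDM replicate 2, and Hey1 was called in all of these fits. The F KO calls named below, Hey1 apart, were thus each lost in at least 1 of them. In males 0 of 49 were called in either genotype by edgeR or DESeq2. At an unadjusted p under 0.05, 3 passed in M WT and 1 in M KO, beside 665 and 857 of all tested genes. The median difference of the 49 was 0.05 on the log2 scale in F WT and 0.10 in F KO. Adjusted p-values below are from edgeR.

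Of 6 other ligands tested, 3 changed in F WT and 1 in F KO. Bmp6 fell by 1.81 ± 0.13 on the log2 scale in F WT (7.34 against 25.7 CPM, adjusted p = 1.59e-06) and by 0.47 ± 0.12 in F KO (adjusted p = 0.0286). Gdf6 had no read in either F WT naïve library or in any male library and lay at 0.915 and 2.37 CPM in F WT HDM, at least 15.1-fold higher against a floor of 3 counts per library. It passed the filter on low counts only through F WT HDM, with 22 and 50 counts there and 0 to 3 elsewhere, so no p is given, and it is among the 3 ligands counted. Bmp3, a ligand known to oppose other BMPs, differed by -0.70 ± 0.23 in F KO (adjusted p = 0.0831). Bmp6 and Bmp2 thus had opposite directions in the same F WT HDM libraries.

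Receptors and signal transducers also moved in both directions. Of 10 receptors and co-receptors, 6 changed in F WT and 3 in F KO. Among the 6 F WT calls, those of Bmpr1b and Acvr1 alone held in every fit with 1 library left out. Bmpr1b, a type I BMP receptor, lay at 45.6 and 37.1 CPM in F WT naïve and 2.91 and 2.42 CPM in F WT HDM, and fell by 3.95 ± 0.20 on the log2 scale (adjusted p = 1.82e-07). In F KO it went from 42.5 and 35.7 CPM to 22.7 and 18.3 CPM and fell by 0.93 ± 0.16 (adjusted p = 0.00471). Acvr1, another type I receptor, rose by 0.77 ± 0.12 in F WT (adjusted p = 0.000431) and by 0.60 ± 0.12 in F KO (adjusted p = 0.0101). Of 5 signal transducers and SMAD regulators, 2 rose in F WT and the same 2 in F KO. Smurf1, a ubiquitin ligase that marks BMP SMADs and receptors for degradation, rose by 0.96 ± 0.10 in F WT (adjusted p = 1.98e-05) and 0.46 ± 0.10 in F KO (adjusted p = 0.0114). Smad1, a receptor-activated SMAD of the pathway, rose by 0.42 ± 0.13 in F WT (adjusted p = 0.0266) and by 0.51 ± 0.13 in F KO (adjusted p = 0.0328). The F WT call was lost without F WT naïve replicate 1 or 2 or F WT HDM replicate 2. Its F WT difference was 0.33 to 0.49 with 1 library left out.

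Of 12 other antagonists and modulators, 5 changed in F WT, 4 higher and 1 lower, and 1 in F KO. Nog, which encodes noggin and blocks BMP2, BMP4 and BMP7, lay at 0.327 and 0.292 CPM in F WT naïve and 9.20 and 12.9 CPM in F WT HDM. It rose by 5.15 ± 0.41 on the log2 scale (adjusted p = 3.63e-06), and in F KO by 1.79 ± 0.37 (2.34 against 0.675 CPM, adjusted p = 0.0114). Fstl3, a follistatin-like binder of activins, rose by 2.20 ± 0.26 in F WT (adjusted p = 6.25e-05). Bambi, a decoy receptor without a kinase, fell by 1.54 ± 0.22 in F WT (adjusted p = 0.000239).

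Of 5 other target genes, all 5 changed in F WT, 3 higher and 2 lower, and 4 changed in F KO. Both counts, and the F WT and F KO counts over the pathway list, include Dlx5. It lay at 0.333 and 0.568 CPM in F WT HDM, 0.484 and 0.465 CPM in F KO HDM and up to 0.218 CPM elsewhere. Dlx5 passed the filter on low counts only through these HDM-treated libraries, so no p is given. Its F WT and F KO calls were lost with DESeq2, without the filter and with a replicate block. Hey1, which is also a target of Notch, lay at 42.1 and 31.4 CPM in F WT naïve and 2.66 and 1.80 CPM in F WT HDM and fell by 4.03 ± 0.32 on the log2 scale (adjusted p = 3.69e-06). It fell by 1.84 ± 0.27 in F KO (9.24 against 33.0 CPM, adjusted p = 0.0024). Atoh8 fell by 2.41 ± 0.36 in F WT (adjusted p = 0.000316) and by 1.23 ± 0.33 in F KO (adjusted p = 0.037). Id4 lay at 51.3 and 51.8 CPM in F WT naïve and 107.7 and 62.4 CPM in F WT HDM. Its F WT difference was 0.27 to 1.06 on the log2 scale with 1 library left out. The F WT call of Id4 was lost without F WT naïve replicate 1 or 2 or F WT HDM replicate 1. It was also lost in a fit of the compared libraries alone. In F KO, Id4 went from 40.8 and 42.6 CPM to 70.7 and 75.4 CPM. Msx2 went from 0.654 and 1.01 CPM to 3.33 and 4.12 CPM in F WT. Id1, Hey1 and Atoh8 were thus lower, and Smad7, Id4, Msx2 and Dlx5 higher, in the F WT HDM libraries. Basal marker sums were lowest in the same libraries, and the part of cell makeup in these values was not tested.

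Of 5 proteases that process BMPs or their antagonists, 3 changed in F WT. In F KO 0 were called by edgeR, and 1, Bmp1, passed an unadjusted p under 0.05 (adjusted p = 0.0558). Bmp1, a metalloprotease that cuts chordin and procollagens, rose by 2.07 ± 0.22 on the log2 scale in F WT (206.6 against 49.1 CPM, adjusted p = 2.85e-05). Pcsk5 fell by 1.32 ± 0.18 (adjusted p = 0.000179). Furin, which cleaves BMP precursors, differed by 0.21 ± 0.10 in F KO (adjusted p = 0.206). All 3 activin-type ligands bound by follistatin rose in F WT. Inhba, the activin A subunit, lay at 8.72 and 27.0 CPM in F WT naïve and 73.0 and 156.4 CPM in F WT HDM and rose by 2.67 ± 0.52 (adjusted p = 0.00159). The difference was 3.71 without F WT naïve replicate 2, 2.08 without F WT naïve replicate 1 and 2.02 without F WT HDM replicate 2. Inhbb rose by 1.15 ± 0.23 (adjusted p = 0.0017) and Gdf11 by 0.98 ± 0.18 (adjusted p = 0.000932). Inhbb rose by 0.95 ± 0.23 in F KO (adjusted p = 0.0229). Of the E proteins that ID proteins bind, Tcf3 rose by 0.21 ± 0.07 in F WT (adjusted p = 0.0316, lost without F WT naïve replicate 1 or 2 or F WT HDM replicate 1, at up to 0.196). Tcf4 and Tcf12 differed by 0.18 ± 0.16 and -0.20 ± 0.10 and were not called.

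**Figure D5:**
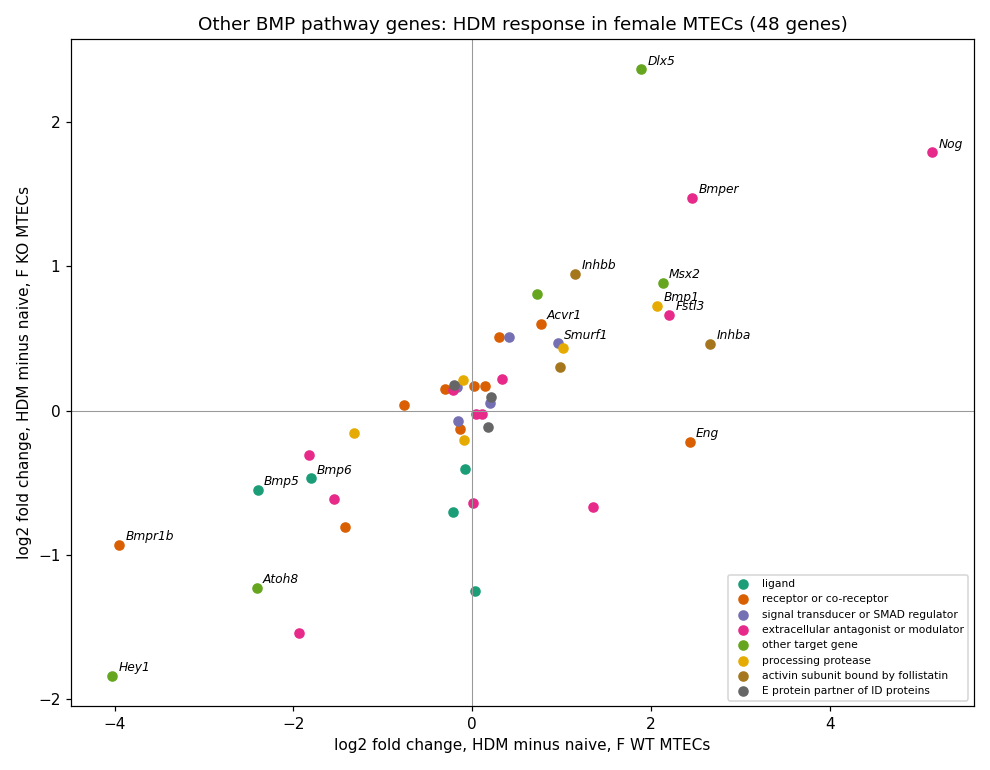
Log2 fold change, HDM minus naïve, of 48 other BMP pathway genes in F WT (horizontal axis) and F KO cultures (vertical axis), colored by role, with Gdf6 left out because its F WT naïve libraries held no read. Nog lay at 5.15 and 1.79, Bmpr1b at -3.95 and -0.93, and Hey1 at -4.03 and -1.84.

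In HDM-treated cultures labelled KO, 17 of the 49 pathway genes (34.7%) differed between the sexes, 6 with more and 11 with less in males, beside 25.3% of all genes. The 11 include Dlx5, which passed the filter on low counts only through HDM-treated female libraries. Hey1 was higher in males by 2.57 ± 0.28 on the log2 scale (54.9 against 9.24 CPM, adjusted p = 0.000131) and Bmpr1b by 1.53 ± 0.16 (59.1 against 20.5 CPM, adjusted p = 0.000129). Nog was lower in males, at -2.53 ± 0.40 (adjusted p = 0.00107), as were Bmp1, at -1.41 ± 0.22 (adjusted p = 0.00108), and Smurf1, at -0.61 ± 0.10 (adjusted p = 0.00107). Of the 17 calls, 7 held in every fit with 1 library left out, among them these 5. In naïve cultures of both genotypes 0 of 49 were called by sex with edgeR. At an unadjusted p under 0.05, 8 passed in WT and 13 in KO, beside 1969 and 1585 of all tested genes. DESeq2 called 3 and 1, beside 204 and 216 of all tested genes.

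Genes most like Bmp2 in pattern over the 16 libraries were Pofut2 (Pearson r of 0.983 on log2 CPM), Jkamp (0.98), Tpm3 (0.973), Itgb5 (0.972) and Map7d1 (0.972), out of 10949 genes ranked. Each was highest in F WT HDM replicate 2 and next highest in replicate 1. Itgb5, an integrin subunit, lay at 437.0 and 596.9 CPM there and at 140.9 to 246.1 CPM in the other 14 libraries. These correlations are descriptive and share the pair of libraries on which Bmp2 was chosen.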

How the data were processed

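A deposited table gave the unnormalized read counts of each Ensembl gene in the 16 libraries. The submitters' processing notes name Trimmomatic (0.36), STAR (2.5.2b), Subread (1.5.2) with featureCounts, DESeq2 and GRCm38. The annotation release and strand setting were not given in the sources used here. RNA was extracted with a column kit, enriched for mRNA and amplified by PCR, so duplicate reads add to the counts and floors cover counting error only.

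Identifiers were matched to GENCODE M21 of GRCm38 (49056 of 49315). Counts were filtered with filterByExpr, scaled by TMM and tested two-sided with edgeR (4.0.16, R 4.3.3) over 8 group means, with adjustment over 15993 genes. The common biological coefficient of variation was 0.142. Figures were drawn with matplotlib in Python 3.11.15.

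The members, the pathway list and the marker lists were chosen with earlier results of these data known. Named genes were the 10 members, Lman1, all other target genes tested and the 5 genes most correlated with Bmp2. Added to these were, in each role of the pathway list, the 2 genes with the smallest p in the F WT and in the F KO response. All genes of roles with 3 or fewer tested were named too. Correlations with Bmp2 used log2 CPM with a prior count of 2, those with markers a pseudocount of 0.5 CPM. Labelled replicate numbers do not state a shared pool, and deviations of same-numbered libraries correlated from -0.164 to 0.483, so no block was used in the tests given. The steps were tested on simulated data. Alternatives were DESeq2 (1.42.0), upper-quartile scaling, omission of the filter, a stricter filter of 10 counts in each library, a fit of just the libraries compared, a replicate block, and each library left out in turn, where a lone library was assumed to vary like the other groups. No Smad7 sequence is reported.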

Additional observations from a re-analysis of the deposited data

Results flagged for a closer look

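In females, the HDM response of 8 of the 49 pathway genes (16.3%, beside 11.2% of all tested genes) differed between the cultures labelled WT and KO by a test of the difference itself (edgeR, adjusted p under 0.05). The WT minus KO difference on the log2 scale was 3.36 for Nog, 1.54 for Fstl3, 1.35 for Bmp1 and 0.49 for Smurf1. It was -3.01 for Bmpr1b, -2.19 for Hey1, -1.34 for Bmp6 and -1.16 for Pcsk5. Of these, Bmpr1b, Nog and Bmp6 passed in every fit with 1 library left out. Without F WT HDM replicate 2 the other 5 were lost. Smurf1, Fstl3, Bmp1 and Pcsk5 were also lost without F WT naïve replicate 1 or F KO HDM replicate 2, and some of them without F WT naïve replicate 2, F KO naïve replicate 1 or 2, or F KO HDM replicate 1. The highest adjusted p over these fits was 0.163 for Smurf1, 0.102 for Fstl3, 0.0878 for Bmp1, 0.0751 for Pcsk5 and 0.0602 for Hey1. In cultures labelled KO, 4 of the 49 (8.16%, beside 3.56% of all tested genes) differed in HDM response by sex, and the female minus male difference was 0.71 for Acvr1, 0.65 for Smurf1, -1.12 for Bmpr1b and -1.82 for Hey1. All 4 of these calls were lost without M KO naïve replicate 1, M KO HDM replicate 1 or 2, F KO naïve replicate 1 or F KO HDM replicate 2. Without F KO HDM replicate 1 Bmpr1b alone passed, and without F KO naïve replicate 2 Acvr1 was lost. The highest adjusted p was 0.195 for Acvr1, 0.143 for Smurf1, 0.126 for Bmpr1b and 0.121 for Hey1.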

How the results depend on the processing

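Counts of calls are given as members or pathway genes past an adjusted p of 0.05. No direction of a called member reversed under any alternative. Over all alternatives other than leaving out a library, 833 member differences kept their side of the threshold or, where untested, moved by less than their standard error. Of the rest, 19 untested differences moved by more and 40 tested ones passed the threshold only under the alternative. With DESeq2, 2 members were called in the F KO response and 2 in the sex by HDM interaction of KO cultures. All genes called there were 2106 and 1192. Pathway calls with DESeq2 were 3 and 1 by sex in WT and KO naïve cultures, beside 204 and 216 of all genes. They were 1 by genotype in HDM-treated males, beside 562 of all genes, and 8 in the KO interaction. Without the filter on low counts 29397 genes were tested. Member calls were then 5 in the F KO response, 1 in M WT and 4 in M KO, beside 2717, 149 and 705 of all genes. By sex they were 1 and 2 in WT and KO naïve cultures and 8 in KO HDM, beside 644, 859 and 4536. By genotype in HDM-treated males they were 6, beside 1896, and in the KO interaction 4, beside 1977. Pathway calls without the filter were 1 in M WT, 9 and 10 by sex in WT and KO naïve cultures and 26 by sex in KO HDM. By genotype they were 2 and 2 in naïve females and males, beside 135 and 98 of all genes, and 12 in HDM-treated males. They were 16 in the KO interaction and 16 in the genotype by HDM interaction of females, the latter beside 3029 of all genes. In a fit of the compared libraries alone, members called were 3 in F KO, 7 by sex in KO HDM and 1 in the KO interaction. All genes called there were 2804 of 14969, 5820 of 14686 and 793 of 15427. Pathway calls in F KO were 19 in that fit. The cause of these shifts was not tested.

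With the replicate block, members called were 3 in the F KO response and 2 in the KO interaction, beside 2150 and 1062 of all genes. Pathway calls in the KO interaction were 7. The block moved no other count of members or pathway genes by over 1.5 times. Where same-numbered libraries correlated below -0.1, a crossed pairing, chosen after seeing the data, called 0 genes in the M KO response and 24 by sex in KO naïve cultures, against 44 with the numbers as given.

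With 1 library left out, member calls ranged from 0 to 0 in F KO, 1 to 3 by sex in KO HDM and 0 to 1 in the KO interaction. Pathway calls ranged from 1 to 5 in F KO, 8 to 10 by sex in KO HDM, 9 to 21 by genotype in HDM-treated females, 0 to 7 in the KO interaction and 3 to 14 in the female genotype interaction. With the F WT naïve and F WT HDM libraries numbered 2 both left out, an alternative chosen after seeing their fibroblast markers, pathway calls were 17 in the F WT response, 7 by genotype in HDM-treated females and 3 in the female genotype interaction. The number of libraries, 2 per group, limits all of these counts.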
